A study of Saccharomyces cerevisiae with 12 samples.

Results

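The 10 genes described here encode the enzymes with which budding yeast removes superoxide and peroxides and keeps protein thiols reduced, and they were picked by name from the 6159 genes of the deposited table. They are the superoxide dismutases SOD1 (YJR104C) and SOD2 (YHR008C), the cytosolic catalase CTT1 (YGR088W), the peroxiredoxins TSA1 (YML028W), TSA2 (YDR453C) and AHP1 (YLR109W), the thioredoxin TRX2 (YGR209C), the glutaredoxins GRX1 (YCL035C) and GRX2 (YDR513W), and the cytochrome c peroxidase CCP1 (YKR066C). Ribosome footprints of 28 to 31 nt and poly(A) mRNA fragments of 50 nt were sequenced from Saccharomyces cerevisiae of the SK1 background, grown in YEPD at 30 °C, given 100 µM cycloheximide for 1 minute and collected at an OD of 0.6. There were 12 libraries, 2 of mRNA and 2 of footprints for each of 3 genotypes that differ in a DEAD-box RNA helicase. In 2xDbp1 cells, 4 copies of DBP1 stood under the regulatory regions of DED1. In Dbp1 cells, DBP1 stood under the same regulatory regions. In Ded1 cells, DED1 itself was carried under them. Ded1 and its paralog Dbp1 both act in translation initiation by opening structure in mRNA leaders. Separate cultures are not named in the labels for the 2 libraries of a genotype, so the p-values reflect only how far these libraries differ, which may be technical spread.

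The helicase genes followed the labels. DBP1 mRNA was at 156 and 153 RPKM (reads scaled by gene length and by library size, a unit read from the values because the labels name none) in 2xDbp1 cells, 100.4 and 105 RPKM in Dbp1 cells and 5.12 and 4.26 RPKM in Ded1 cells. DED1 mRNA was at 1.81 to 2.81 RPKM in the 4 mRNA libraries of the 2xDbp1 and Dbp1 cells and at 63.0 and 61.5 RPKM in Ded1 cells. The depth inferred from the steps between low values was 5998000 to 8498000 reads for mRNA and 8699000 to 13111000 reads for footprints, so a gene of 1 kb at 5 RPKM rested on 28.2 to 39.9 reads in mRNA and 40.9 to 61.6 in footprints.

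Superoxide, which leaks from respiration, is turned into hydrogen peroxide by Sod1 in the cytosol and Sod2 in the mitochondrial matrix. The peroxide is then removed by catalase, by peroxiredoxins that draw electrons from thioredoxin, and by cytochrome c peroxidase in mitochondria, while glutaredoxins use glutathione to reduce disulfides. In yeast, transcription of CTT1 and several relatives is driven by the general stress factors Msn2 and Msn4. That of TSA1, AHP1 and TRX2 is driven mainly by the peroxide-responsive factors Yap1 and Skn7. From that general knowledge, CTT1, SOD2, TSA2, GRX1 and GRX2 are called stress-type below. SOD1, TSA1, AHP1 and TRX2 are called constitutive, which is a class name only, and CCP1 stands apart. These classes were set with earlier results of these data known.

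The set was dominated by 4 abundant mRNAs. In Ded1 cells, mean mRNA levels were 2940 ± 161 RPKM for TSA1, 1805 ± 140 for TRX2, 1623 ± 80.0 for SOD1 and 1543 ± 83.9 for AHP1 (SD, n = 2 libraries). TSA1 stood above TRX2, and TRX2 above SOD1, without overlap of their 2 libraries, whereas SOD1 and AHP1 overlapped. GRX1 (358 ± 25.9 RPKM) and GRX2 (311 ± 70.7) followed with overlapping ranges, then SOD2 (210 ± 22.4), CCP1 (86.9 ± 9.67) and TSA2 (32.8 ± 0.292), with no overlap between neighbours from GRX2 downward. CTT1 was the scarcest at 4.29 ± 0.76 RPKM, at position 5175 from the top of 5198 genes tested in mRNA.

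Footprints put the members in another order. AHP1, a peroxiredoxin that prefers alkyl hydroperoxides, had 6705 ± 583 footprint RPKM in Ded1 cells (SD, n = 2), above TSA1 at 4774 ± 168, SOD1 at 2234 ± 145 and TRX2 at 1094 ± 73.6. These 4 ranges did not overlap. AHP1 was at position 23 of 4830 genes by mean footprint level in 2xDbp1 cells, 12 in Dbp1 cells and 32 in Ded1 cells. SOD2 (562 ± 42.3 RPKM) stood above GRX2 (351 ± 15.2) and GRX1 (318 ± 38.6) in footprints although it was below both in mRNA. TSA2 had 10.0 ± 0.187 footprint RPKM and CTT1 2.76 ± 0.804, the lowest of the 10.

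**Figure D1:**
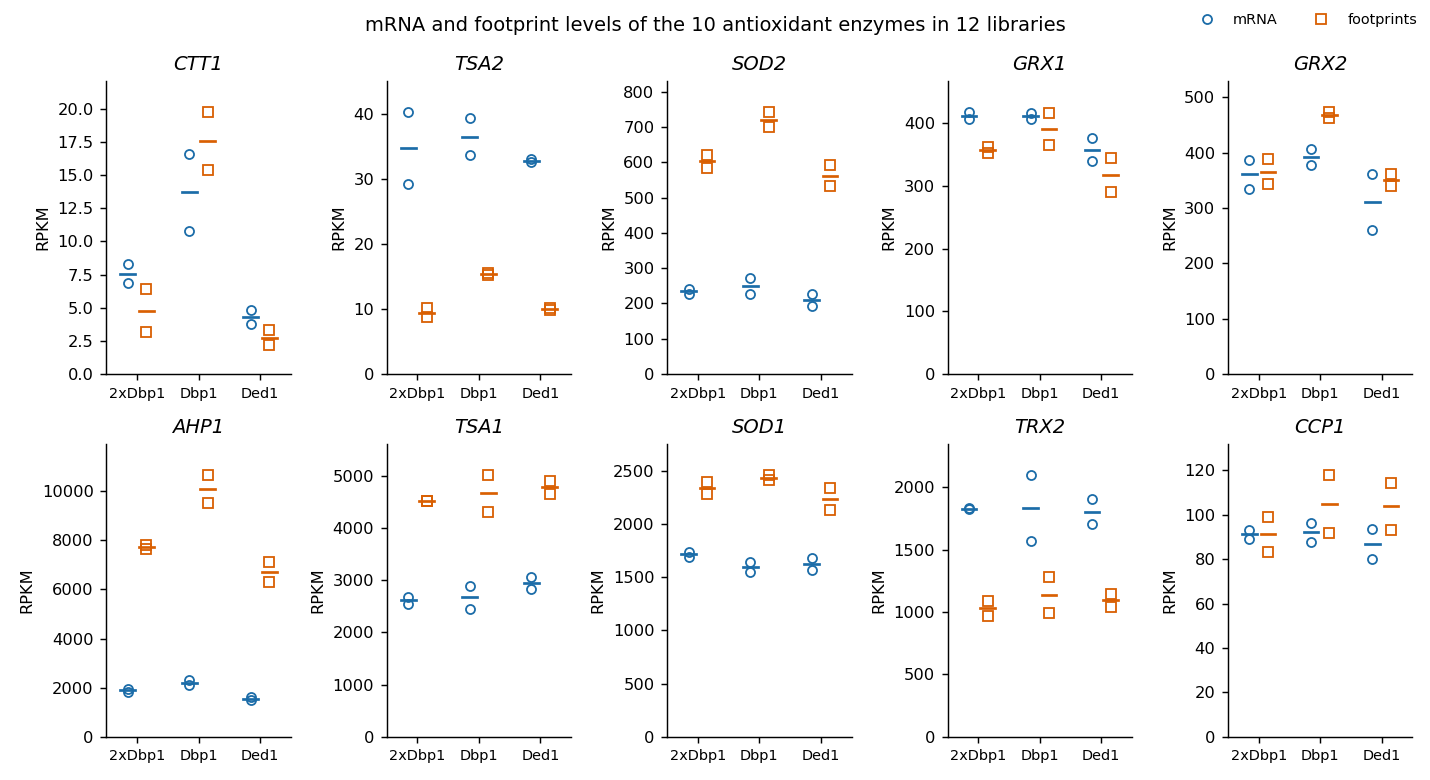
RPKM of each of the 10 genes on linear axes that start at 0, with 1 point per library (circles mRNA, squares footprints) and a bar at the mean of the 2 libraries each of 2xDbp1, Dbp1 and Ded1 cells. For CTT1 and AHP1 both Dbp1 libraries lie above all others in mRNA and in footprints. By the mean, Dbp1 cells are also highest in both kinds of library for SOD2, GRX2 and TSA2, and narrowly for TRX2 and CCP1. For these further genes the Dbp1 and 2xDbp1 libraries overlap in mRNA. The genotypes lie close together for TSA1, SOD1, TRX2 and CCP1.

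The comparison of Dbp1 with Ded1 cells asks what differs when DBP1 replaces DED1 under the same regulatory regions. CTT1, which splits hydrogen peroxide in the cytosol, and AHP1 rose in Dbp1 cells in both mRNA and footprints, and the other 8 members did not pass the test in either. Tests were made with limma on log2(RPKM + 1) over all genes with a mean of at least 5 RPKM, with Benjamini-Hochberg adjustment and a threshold of 0.05, 2-sided. The 2 members of 10 that were higher compare with 1.29% of the 5198 genes called higher in mRNA and 2.42% of the 4830 called higher in footprints. No member was called lower, where 0.231% and 0.89% of these genes were. In footprints CTT1 passed the filter only through the Dbp1 libraries, and no other stress-type member was called.

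CTT1 mRNA was at 16.6 and 10.8 RPKM in Dbp1 cells, against 4.83 and 3.76 RPKM in Ded1 cells. Its footprints were at 19.7 and 15.4 RPKM in Dbp1 cells, against 2.19 and 3.32 RPKM in Ded1 cells. The groups did not overlap in either, and the footprint values rested on 312 and 271 inferred reads in Dbp1 cells and on 31 and 71 in Ded1 cells. On the log2(RPKM + 1) scale, which understates the change of so low a gene, the mRNA difference was 1.45 (SE 0.241, 95% interval 0.89 to 2.02, limma adjusted p = 0.0432) and the footprint difference 2.31 (SE 0.297, 1.61 to 3.02, adjusted p = 0.0166). The ratio of the linear means was 3.19 in mRNA and 6.37 in footprints. Even in Dbp1 cells CTT1 mRNA remained low, at position 4618 of 5198. CTT1 passed the filter in footprints only through the Dbp1 libraries, since its mean over the other 4 footprint libraries was 3.77 RPKM. With no filter it still passed the footprint test (adjusted p = 0.0265). The mRNA call was lost when the 2 genotypes were fitted alone (adjusted p = 0.101) and without any 1 library other than the second Dbp1 library (0.0974 to 0.176). Without the first Dbp1 library the mRNA difference was 1.16 (adjusted p = 0.173), and the footprint call was lost without the first Dbp1 library (0.0791) or the first Ded1 library (0.103).

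AHP1 mRNA was at 2094 and 2326 RPKM in Dbp1 cells, against 1484 and 1603 RPKM in Ded1 cells. AHP1 footprints were at 9530.1 and 10651 RPKM in Dbp1 cells, against 6293 and 7118 RPKM in Ded1 cells. Both Dbp1 libraries lay above both Ded1 libraries in mRNA and in footprints, and the differences were 0.52 in mRNA (SE 0.0884, 95% interval 0.31 to 0.72, limma adjusted p = 0.0447) and 0.59 in footprints (SE 0.0894, 0.38 to 0.80, adjusted p = 0.0243). These are ratios of 1.43 and 1.50 between the linear means. The mRNA call was lost without any 1 of the 6 libraries (adjusted p = 0.0591 to 0.259), with no filter (0.0581), with the libraries rescaled to a common median (0.0689) and with the 2 genotypes alone (0.109). The footprint call was lost with the 2 genotypes alone (0.0675), without either 2xDbp1 library (0.0674 and 0.0666) and without the first Dbp1 library (0.0534) or the first Ded1 library (0.115), so these calls lie close to the threshold.

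The stress-type members TSA2, GRX2 and SOD2 had footprint differences whose unadjusted 95% intervals lay above 0 but whose adjusted p-values missed the threshold. At an unadjusted p under 0.05 in limma there were 6 of 10 members in footprints, beside 23.5% of all genes. In mRNA there were 2 of 10, beside 19.5% of all genes. The 6 in footprints include CTT1, which passed the footprint filter only through the Dbp1 libraries. TSA2, a low-abundance relative of TSA1, had 15.5 and 15.2 footprint RPKM in Dbp1 cells, against 10.2 and 9.91 RPKM in Ded1 cells, a difference of 0.57 (SE 0.113, limma adjusted p = 0.0508). The call was gained with a pseudocount of 5 (adjusted p = 0.0465) or with rescaled libraries (0.0472). GRX2, which gives most of the glutaredoxin activity of the cell, had 473 and 464 RPKM in Dbp1 cells, against 341 and 362 RPKM in Ded1 cells (0.41, 95% interval 0.20 to 0.63, adjusted p = 0.0602). SOD2 had 741 and 699 RPKM in Dbp1 cells, against 592 and 532 RPKM in Ded1 cells (0.36, 0.15 to 0.57, adjusted p = 0.0799). In mRNA the differences were 0.14 for TSA2, 0.35 for GRX2 and 0.25 for SOD2, with adjusted p-values of 0.669, 0.273 and 0.312.

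GRX1, the paralog of GRX2, had 415 and 365 footprint RPKM in Dbp1 cells, against 345 and 290.3 RPKM in Ded1 cells (0.30, 95% interval 0.04 to 0.56, limma adjusted p = 0.168). Its mRNA difference was 0.20 (-0.01 to 0.41, adjusted p = 0.273). In all, the Dbp1 libraries lay above the Ded1 libraries without overlap for 5 of 5 stress-type members in mRNA and 5 of 5 in footprints, where 30.6% and 25.1% of all genes did so. The gap was narrow for TSA2 mRNA, at 33.6 and 39.4 RPKM in Dbp1 cells, against 32.6 and 33.0 RPKM in Ded1 cells. The median difference of the stress-type members was 0.25 in mRNA and 0.41 in footprints, beside medians of 0.04 and 0.004 over all genes tested. The footprint count and median include CTT1, which passed the filter only through the Dbp1 libraries. Over the other 4 stress-type members the footprint median was 0.39. Because the classes were set with earlier results of these data known, the class counts and medians are descriptions.

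The remaining constitutive enzymes and CCP1 showed small differences with intervals on both sides of 0. SOD1, the abundant copper-zinc enzyme, differed by -0.03 in mRNA (95% interval -0.21 to 0.16) and 0.13 in footprints (-0.06 to 0.31). TSA1, the main cytosolic peroxiredoxin, differed by -0.14 (-0.37 to 0.09) and -0.04 (-0.25 to 0.17). TRX2, which returns electrons to the peroxiredoxins, differed by 0.01 (-0.31 to 0.33) and 0.04 (-0.28 to 0.37), and CCP1 by 0.09 (-0.17 to 0.34) and 0.01 (-0.37 to 0.39). For these 4 genes the intervals leave out changes beyond 0.39 on the log2 scale in either direction, but they do not show equal levels. The constitutive members had a median difference of -0.01 in mRNA and 0.08 in footprints. Their groups were apart and higher in Dbp1 cells for 1 of 4 in mRNA (AHP1) and 2 of 4 in footprints (AHP1 and SOD1). The same held for 30.6% of all genes in mRNA and 25.1% in footprints.

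**Figure D2:**
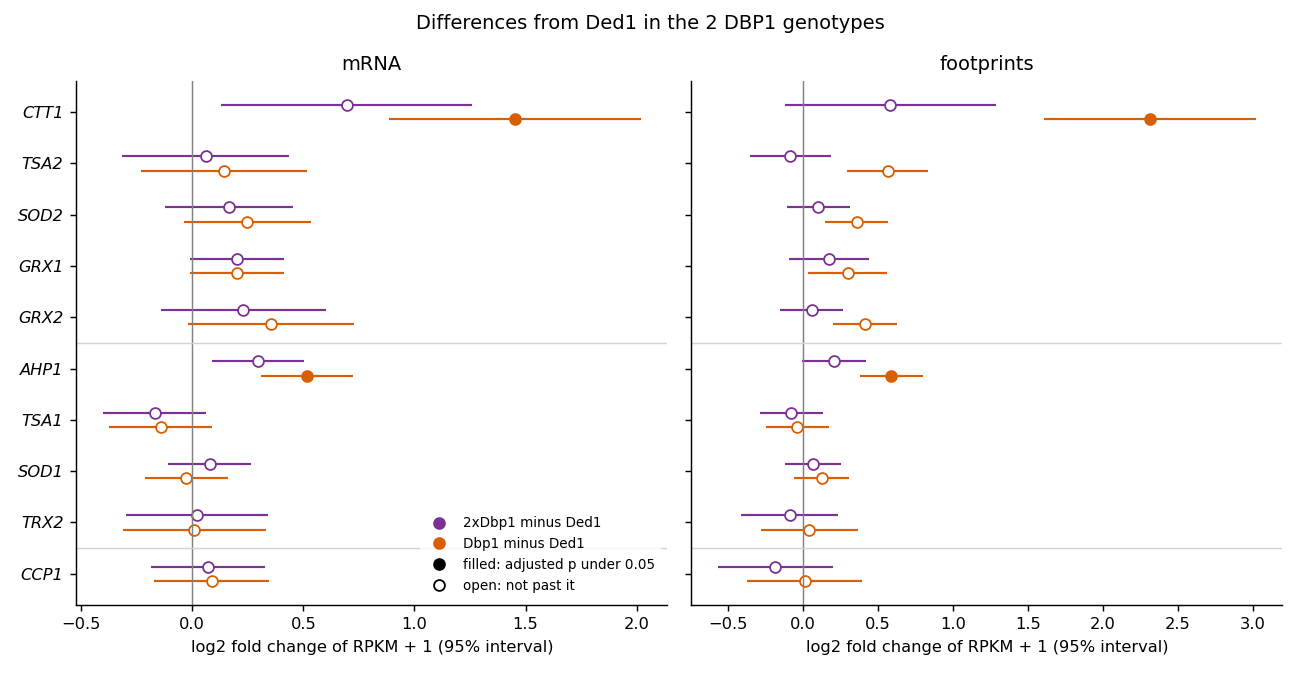
Log2 fold change of RPKM + 1 for 2xDbp1 minus Ded1 (purple, upper of each pair) and Dbp1 minus Ded1 (orange, lower) in mRNA (left) and footprints (right), with 95% intervals and the stress-type members above the first grey line. Filled points have an adjusted p under 0.05, and these are CTT1 and AHP1 in Dbp1 cells, at 1.45 and 0.52 in mRNA and 2.31 and 0.59 in footprints.

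In 2xDbp1 cells, which carry more copies of DBP1, no member passed the test against Ded1 cells. Of the 10 members, 0 passed in mRNA and 0 in footprints, where 0.077% and 0.0621% of all genes did. At an unadjusted p under 0.05 in limma there were 2 members in mRNA, CTT1 and AHP1, and 0 in footprints, beside 15.1% and 9.3% of all genes. The comparisons of 2xDbp1 and of Dbp1 with Ded1 share the same Ded1 libraries, so their values are set side by side and are not independent.

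CTT1 mRNA was at 6.84 and 8.27 RPKM in 2xDbp1 cells, against 4.83 and 3.76 RPKM in Ded1 cells, a difference of 0.69 (95% interval 0.13 to 1.26, limma adjusted p = 0.289). CTT1 footprints were at 3.19 and 6.40 RPKM in 2xDbp1 cells, against 2.19 and 3.32 RPKM in Ded1 cells, a difference of 0.58 (-0.12 to 1.29, adjusted p = 0.576). The mRNA values did not overlap and the footprint values did. AHP1 was at 1841 and 1946 RPKM in mRNA and 7645 and 7827 RPKM in footprints of 2xDbp1 cells, apart from and above the Ded1 libraries in both. Its differences were 0.30 (0.09 to 0.50, adjusted p = 0.270) and 0.21 (-0.004 to 0.42, adjusted p = 0.544). TSA1 was the member whose 2xDbp1 libraries lay below both Ded1 libraries in mRNA and in footprints, at 2552 and 2674 RPKM in mRNA of 2xDbp1 cells against 2826 and 3053 RPKM in Ded1 cells (-0.17, -0.40 to 0.06, adjusted p = 0.45). Of all genes, 21.4% in mRNA and 19.7% in footprints were lower without overlap in this way. Of the stress-type members, 3 of 5 in mRNA and 1 of 5 in footprints were higher without overlap in 2xDbp1 cells, beside 30.9% and 25% of all genes.

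Between 2xDbp1 and Dbp1 cells, the comparison of more against fewer copies of DBP1, 0 of 10 members passed the limma test in mRNA and 0 in footprints, where 0.0192% and 0% of all genes did. At an unadjusted p under 0.05 there were 2 members in mRNA and 5 in footprints, beside 7.77% and 9.07% of all genes. All 5 stress-type members had fewer footprints in both 2xDbp1 libraries than in both Dbp1 libraries, beside 18.2% of all genes. They include CTT1, which passed the footprint filter only through the Dbp1 libraries. The comparison of Dbp1 with Ded1 cells uses the same Dbp1 libraries, so its results and these are not independent. The largest differences in footprints were in CTT1 (-1.73, 95% interval -2.43 to -1.02, adjusted p = 0.206) and TSA2 (-0.65, -0.92 to -0.38, adjusted p = 0.209). TSA2 footprints were at 10.1 and 8.77 RPKM in 2xDbp1 cells, against 15.5 and 15.2 RPKM in Dbp1 cells. AHP1 differed by -0.38 (-0.59 to -0.17, adjusted p = 0.384), GRX2 by -0.36 (-0.57 to -0.14, adjusted p = 0.386) and SOD2 by -0.26 (adjusted p = 0.503). In mRNA the CTT1 difference was -0.76 (-1.32 to -0.19, adjusted p = 0.557) and the AHP1 difference -0.22 (-0.43 to -0.01, adjusted p = 0.622). A p that misses the threshold does not show that copy number left these genes alike.

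Footprints per mRNA, the ratio of footprint RPKM to mRNA RPKM in same-numbered libraries and the usual measure of translational efficiency, spread widely over the 10 enzymes. In Ded1 cells AHP1 had 4.24 and 4.44 footprints per mRNA, SOD2 had 2.62 and 2.74, and TSA1 had 1.73 and 1.52. SOD1, GRX2 and CCP1 lay between 1.00 and 1.49, with the range of GRX2 overlapping both others, and GRX1 was at 1.02 and 0.772. TRX2 (0.610 and 0.602) and TSA2 (0.312 and 0.300) were below the median of all genes, which was 0.663 in Ded1 cells. By the 2xDbp1 and Dbp1 means too, TSA2 and TRX2 were the lowest and TSA1, SOD2 and AHP1 the highest, in that order, while CTT1 changed its place.

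In the interaction test, 0 of 10 members passed in any of the 3 comparisons, beside 0.0418% of 4785 genes in Dbp1 and in 2xDbp1 against Ded1 and 0% in 2xDbp1 against Dbp1. At an unadjusted p under 0.05 in limma there were 0 members in the comparisons with Ded1 and 2 between 2xDbp1 and Dbp1, beside 3.16%, 5.12% and 3.59% of all genes in Dbp1 against Ded1, 2xDbp1 against Ded1 and 2xDbp1 against Dbp1. These 2 were CTT1 and TSA2, and CTT1 passed the footprint filter of this test only through the Dbp1 libraries. CTT1 had 0.466 and 0.774 footprints per mRNA in 2xDbp1 cells, 1.19 and 1.43 in Dbp1 cells and 0.453 and 0.885 in Ded1 cells. The Dbp1 values stood apart from both other genotypes, which overlapped each other. The interaction was 0.86 on the log2 scale for Dbp1 against Ded1 (95% interval -0.05 to 1.77, adjusted p = 1.00) and -0.97 for 2xDbp1 against Dbp1 (-1.88 to -0.06, adjusted p = 0.999). With the mRNA and footprint libraries paired, those adjusted p-values were 0.408 and 0.310.

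TSA2 had 0.251 and 0.301 footprints per mRNA in 2xDbp1 cells, 0.462 and 0.386 in Dbp1 cells and 0.312 and 0.300 in Ded1 cells. Its interaction was 0.42 for Dbp1 against Ded1 (95% interval -0.03 to 0.87) and -0.57 for 2xDbp1 against Dbp1 (-1.02 to -0.11). For 7 of 10 members, all but CCP1, TSA1 and SOD2, both 2xDbp1 ratios lay below both Dbp1 ratios, beside 17.8% of all genes. SOD2 met at the edge, with 2.73 and 2.41 in 2xDbp1 cells and 2.73 and 3.06 in Dbp1 cells. In Dbp1 against Ded1 cells the ratios were apart and higher for 4 members (CTT1, TSA2, TRX2 and AHP1), beside 13.4% of all genes. Both comparisons use the same Dbp1 libraries and are not independent. CTT1 is in both counts, and it passed the footprint filter only through the Dbp1 libraries.

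**Figure D3:**
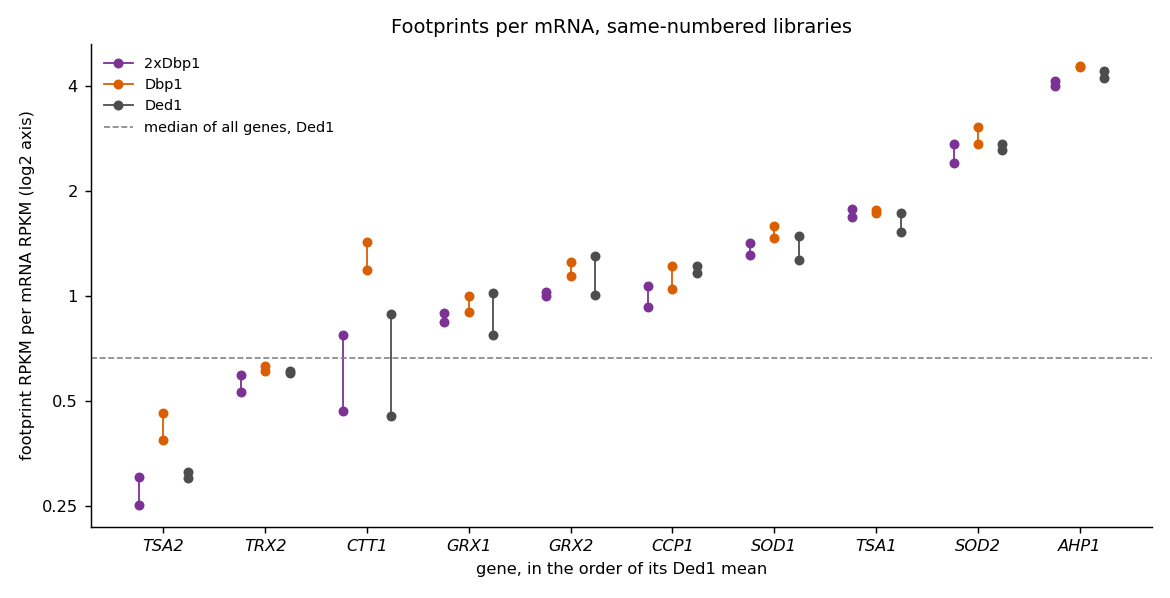
Footprint RPKM divided by mRNA RPKM (log2 axis) in each pair of same-numbered libraries of 2xDbp1 (purple), Dbp1 (orange) and Ded1 cells (grey), with genes in the order of their Ded1 mean and a line joining the 2 values of a genotype. AHP1 lies above 4 in every pair, and CTT1 lies at 1.19 and 1.43 in Dbp1 cells, above its values in the other genotypes.

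Among the paralogs, TSA1 and TSA2 stood far apart in level and GRX1 and GRX2 close together. The Tsa1 and Tsa2 proteins have the same length of 196 residues, and TSA2 mRNA was 1.58% and 1.09% of TSA1 mRNA in 2xDbp1 cells, 1.37% and 1.36% in Dbp1 cells and 1.15% and 1.08% in Ded1 cells. GRX1 and GRX2, of 110 and 143 residues, had GRX1 at 1.21 and 1.08 times GRX2 in mRNA of 2xDbp1 cells, 1.10 and 0.998 times in Dbp1 cells and 1.30 and 1.04 times in Ded1 cells. How reads that match both paralogs were counted is not given in the sources used here, so the levels of TSA2 in particular, and of TRX2 beside its paralog TRX1, are uncertain. The balance between the main peroxiredoxins moved with genotype: TSA1 mRNA was 1.39 and 1.37 times AHP1 mRNA in 2xDbp1 cells, 1.17 and 1.25 times in Dbp1 cells and 1.90 and 1.90 times in Ded1 cells. AHP1 took 44.8% and 46.0% of the summed footprint RPKM of the 10 genes in 2xDbp1 cells, 50.0% and 50.7% in Dbp1 cells and 39.5% and 43.5% in Ded1 cells. These ratios are descriptions and were not tested.

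Beyond the 10 genes, 25 further genes of peroxide, thioredoxin and glutathione metabolism were listed, and 23 were tested in mRNA and 22 in footprints. Between Dbp1 and Ded1 cells 1 of 23 rose in mRNA and none fell, and in footprints none of 22 rose and 2 fell, with medians of 0.12 and 0.07. Over all genes 1.29% rose and 0.231% fell in mRNA, and 2.42% rose and 0.89% fell in footprints. GTT1, a glutathione transferase, was at 89.7 and 77.7 mRNA RPKM in Dbp1 cells, against 52.7 and 55.3 RPKM in Ded1 cells (0.62, SE 0.105, limma adjusted p = 0.0444). That call was lost with no filter (0.0581), with the 2 genotypes alone (0.101) and without any 1 library other than the second Dbp1 library (0.101 to 0.241). The 2 that fell in footprints, GRX8 and MXR1, were singled out after their values were seen. GRX8, a glutaredoxin of low activity, fell to 32.8 and 36.03 footprint RPKM in Dbp1 cells, against 67.3 and 72.3 RPKM in Ded1 cells (-1.0001, SE 0.108, adjusted p = 0.00894). Its mRNA was at 37.0 and 42.0 RPKM in Dbp1 cells, against 65.6 and 63.6 RPKM in Ded1 cells (-0.70, adjusted p = 0.0564), and its footprint call was lost without the first Ded1 library (0.0607).

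MXR1, which repairs oxidised methionine, was at 80.5 and 99.0 footprint RPKM in Dbp1 cells, against 181 and 196 RPKM in Ded1 cells (-1.07, SE 0.161, limma adjusted p = 0.0243). The call was lost without the first Dbp1 library (0.0986) or either Ded1 library (0.103 and 0.0979). In 2xDbp1 cells GRX8 had 48.7 and 41.5 footprint RPKM (-0.62 against Ded1, adjusted p = 0.188) and MXR1 had 131 and 98.1 RPKM (-0.73, adjusted p = 0.269). In footprints of both genes each 2xDbp1 and Dbp1 library lay below each Ded1 library. Between 2xDbp1 and Ded1 cells, 19.7% of all genes were lower without overlap in footprints. The comparisons share the Ded1 libraries, and GRX8 and MXR1 were singled out after their values were seen. In 2xDbp1 against Ded1 cells 0 of 23 genes passed in mRNA and 0 of 22 in footprints by limma, with 6 and 5 at an unadjusted p under 0.05, beside the 15.1% and 9.3% of all genes given above.

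Other targets of the peroxide-responsive factor Yap1 were 12 listed genes, of which 5 also stand among the further antioxidant genes. Between Dbp1 and Ded1 cells they gave 0 calls of 10 tested in mRNA and 0 of 9 in footprints, with medians of 0.03 and -0.03. Of all genes, 1.29% were called higher and 0.231% lower in mRNA, and 2.42% higher and 0.89% lower in footprints. At those shares a list this short would give few calls. In limma 2 and 0 of these targets had an unadjusted p under 0.05, beside 19.5% of all genes in mRNA and 23.5% in footprints. The lowest p-values in mRNA were those of LOT6, a quinone reductase, at 40.2 and 36.8 RPKM in Dbp1 cells against 24.8 and 24.7 RPKM in Ded1 cells (0.62, limma adjusted p = 0.0593), and of GTT2, a glutathione transferase (0.29, adjusted p = 0.215). Of 10 regulators of these genes, 0 passed in mRNA, beside the same 1.29% of all genes called higher and 0.231% called lower. At an unadjusted p under 0.05 in limma there were 3 regulators, beside the same 19.5% of all genes, and the median was 0.10. YAP1 mRNA was at 98.3 and 108 RPKM in Dbp1 cells, against 76.2 and 85.9 RPKM in Ded1 cells (0.34, adjusted p = 0.147). HAP4, the activating subunit of a respiratory gene regulator, was at 90.6 and 82.0 RPKM in Dbp1 cells, against 64.4 and 71.3 RPKM in Ded1 cells (0.34, adjusted p = 0.148). MSN2 and MSN4, given here because they drive CTT1 and not for their p-values, differed by 0.07 (adjusted p = 0.831) and 0.43 (adjusted p = 0.356), and mRNA levels do not report on where these factors sit in the cell.

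General stress genes were also higher in Dbp1 cells. The 36 listed genes include those of heat shock, trehalose and glycogen metabolism and others such as HXK1, GPD1 and RTN2, and they hold none of the 10 enzymes. In Dbp1 against Ded1 cells 13 of 32 tested rose in mRNA and 23 of 29 in footprints, and none fell. Of all genes, 1.29% rose and 0.231% fell in mRNA, and 2.42% rose and 0.89% fell in footprints. The list was chosen with earlier results of these data known. Of the listed genes tested, 2 in mRNA and 3 in footprints passed the filter of 5 RPKM only through the Dbp1 libraries where they were high, as CTT1 did in footprints. Without them the counts were 13 of 30 and 21 of 26, with medians of 0.98 and 1.22. The full counts were 2 and 11 with the 2 genotypes alone and ranged over 0 to 16 and 5 to 24 with a library left out. Their mean log2(RPKM + 1) was 4.39 and 4.46 in mRNA of 2xDbp1 cells, 5.25 and 4.82 in Dbp1 cells and 3.93 and 3.999 in Ded1 cells. In footprints it was 4.52 and 4.44 in 2xDbp1 cells, 5.47 and 4.91 in Dbp1 cells and 3.87 and 3.88 in Ded1 cells. The genotypes did not overlap, and the first Dbp1 library, where CTT1 was highest in both kinds of library, was the highest of the 6 in each. The part of this general stress level in the CTT1 and AHP1 results was not tested. In bulk samples more cells of a state and more RNA per cell cannot be told apart.

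**Figure D4:**
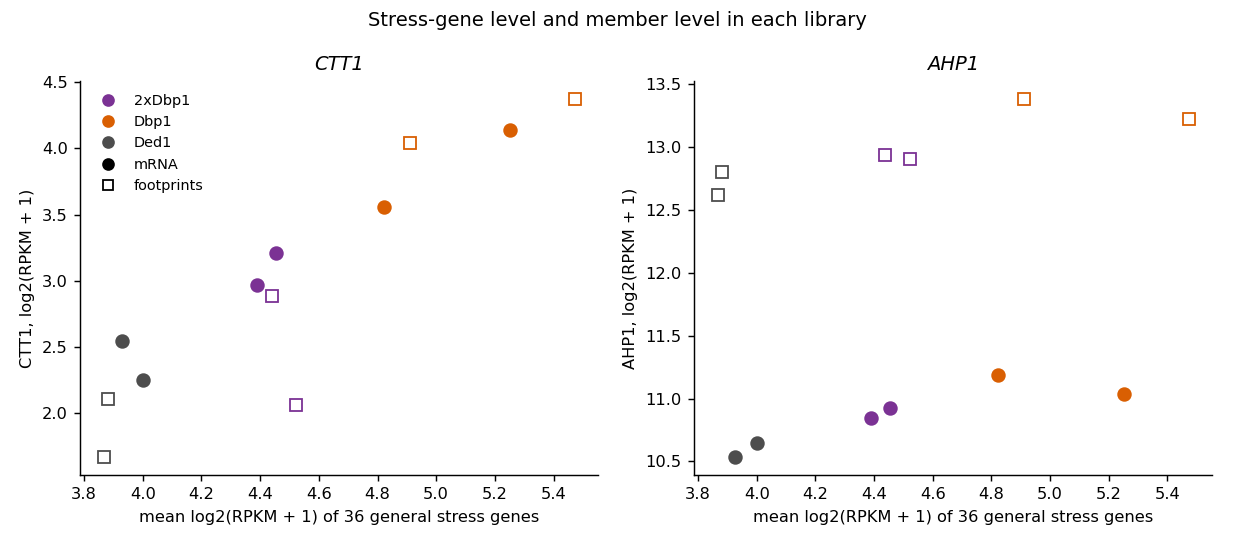
CTT1 (left) and AHP1 (right) as log2(RPKM + 1) against the mean log2(RPKM + 1) of 36 general stress genes, with 1 point per library of 2xDbp1 (purple), Dbp1 (orange) and Ded1 cells (grey), filled for mRNA and open for footprints. The Dbp1 libraries have the highest stress level (4.82 to 5.47) and the Ded1 libraries the lowest (3.87 to 3.999). AHP1 is higher in the second library than in the first of every genotype, in both kinds of library. Of the Dbp1 libraries, the second has the lower stress level.

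Of 10 meiotic genes, which would mark cells leaving growth for sporulation, 1 passed the filter in mRNA (ZIP1) and 0 in footprints. Their summed mRNA level was 29.5 and 26.7 RPKM in 2xDbp1 cells, 36.9 and 27.4 RPKM in Dbp1 cells and 29.0 and 25.1 RPKM in Ded1 cells, and the groups overlapped. Among the 10 enzymes, the closest mRNA patterns over the 6 libraries were those of CCP1 with GRX2 (Pearson r = 0.91), CTT1 with SOD2 (0.88), GRX1 with GRX2 (0.87) and AHP1 with CTT1 (0.85). Over all genes, the patterns most like CTT1 were those of YDR292C, a subunit of the signal recognition particle receptor, GPH1, the glycogen phosphorylase, and MPE1, a subunit of the mRNA cleavage and polyadenylation factor, each at r = 0.99. There were 259 of 5197 genes at 0.9 or above. The patterns most like TSA1 were those of CTP1, a mitochondrial citrate carrier, at 0.99, GYP8, a GTPase activator, at 0.98 and OCA2 at 0.97, with 58 of 5197 genes at 0.9 or above. These correlations are descriptions over 6 libraries of 3 genotypes that share their scaling.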

How the data were processed

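The authors deposited 1 table, 6159 genes by 12 libraries. The labels name no unit, and the deposited values were read as RPKM because they step in whole reads once multiplied by coding length. Per the submitters' processing notes, CASAVA, bcl2fastq 2.17 and Bowtie2 were used. The genome build, the annotation and the rule for reads matching several genes were not given in the sources used here. Symbols were matched to a RefSeq table for 5637 genes, and all 10 members matched. The steps were whole for 83.3% to 87.5% of values of up to 200 reads (tolerance 0.02 reads, coding length minus 60 nt), which gave the inferred depths. That share was too low for a count test.

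Values were tested as log2(RPKM + 1) with limma 3.58.1 (R 4.3.3, trended empirical Bayes), with 3 genotypes in 1 fit, on genes whose mean in the fitted libraries reached 5 RPKM. For translational efficiency, all 12 libraries entered 1 fit and the genotype-by-library-type interaction was tested. Benjamini-Hochberg adjustment ran over all genes tested. The test was first checked on simulated data in which all genes had the same spread. That check does not cover genes whose libraries vary more, such as CTT1. Same-numbered mRNA and footprint libraries deviated together within each genotype (r = 0.417 in 2xDbp1, 0.657 in Dbp1 and 0.533 in Ded1 over 4785 genes). Ratios therefore pair them, while the main interaction fit does not. Alternatives were pseudocounts of 0.5 and 5, no filter, a minimum mean of 20, rescaled libraries, 2 genotypes alone, a replicate block and each library left out. In the interaction test the replicate block paired same-numbered mRNA and footprint libraries within each genotype.

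The members, their classes and all gene lists were chosen with earlier results of these data known. Named genes were all members and, of each list, those past the threshold in mRNA or else the 2 with the lowest p. GRX8, MXR1, MSN2 and MSN4 fall outside that rule and were added after their values were seen, and the general stress genes are given as a list. For CTT1 and TSA1 the 3 genes most alike in mRNA were named too.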

Additional observations from a re-analysis of the deposited data

How the results depend on the processing

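The 2 members called in mRNA between Dbp1 and Ded1 cells became 1 with no filter, 1 with a minimum mean of 20, 1 with rescaled libraries and 0 with the 2 genotypes alone, and 0 to 1 with a library left out. The 2 called in footprints became 1 with a minimum mean of 20, 1 with the 2 genotypes alone, 3 with a pseudocount of 5 or rescaled libraries, and 0 to 2 with a library left out. A minimum mean of 20 removed CTT1 from both fits and TSA2 from footprints. With a library left out, the lone remaining sample is assumed to vary like the other groups. Over all genes, the 79 mRNA calls ranged over 8 to 116 by setting and 2 to 204 with a library left out, and the 160 footprint calls over 44 to 176 and 22 to 244. Between 2xDbp1 and Ded1 cells, the 4 mRNA calls ranged over 4 to 26 and 3 to 27, and the 3 footprint calls over 2 to 12 and 2 to 22. The replicate block across genotypes gave 2 members in mRNA and 2 in footprints of Dbp1 against Ded1 cells, and 0 in the other mRNA and footprint comparisons. For translational efficiency the block instead paired same-numbered mRNA and footprint libraries within each genotype, and it gave 0 members. The block thus changed no member call. Deviations of same-numbered libraries of different genotypes correlated at -0.107 to 0.325 in mRNA and -0.0711 to 0.355 in footprints. The highest values, 0.325 and 0.355, were those of 2xDbp1 with Ded1, and the main fits carried no replicate block. Whether same-numbered libraries share a replicate effect was not tested. Near-zero differences of Dbp1 against Ded1 changed sign with a library left out: in mRNA SOD1 (-0.077 to 0.023), TRX2 (-0.20 to 0.22, and -0.026 with rescaled libraries), CCP1 (-0.025 to 0.20) and MSN2 (-0.044 to 0.18), and in footprints TSA1 (-0.15 to 0.070), TRX2 (-0.14 to 0.23) and CCP1 (-0.17 to 0.19). The cause was not tested. Over all alternatives for the printed single-gene values, 619 kept direction and side of the threshold, 47 lost the call, 7 gained it and 12 changed sign. Depth limits CTT1 and TSA2 footprints most, at 31 to 312 and 47 to 87 inferred reads per library.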

Other observations

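The pentose phosphate pathway supplies the NADPH on which thioredoxin and glutathione reduction depend, and 9 of its 11 listed genes were tested. Between Dbp1 and Ded1 cells 1 rose in mRNA and 1 in footprints, where 1.29% and 2.42% of all genes did, and none fell. The medians were 0.08 over 9 genes in mRNA and -0.03 over 8 in footprints, where 1 gene passed the filter of 5 RPKM only through the Dbp1 libraries and is left out of the median. The gene that rose in both was SOL4, which encodes a 6-phosphogluconolactonase and also stands among the general stress genes. SOL4 mRNA was at 12.01 and 12.2 RPKM in Dbp1 cells, against 3.52 and 4.99 RPKM in Ded1 cells (1.34, limma adjusted p = 0.0336). Its footprints were at 23.6 and 13.0 RPKM in Dbp1 cells, against 4.87 and 5.06 RPKM in Ded1 cells (1.63, adjusted p = 0.0424). The mRNA call was lost with the 2 genotypes alone and without any 1 library (0.0522 to 0.176), and the footprint call with no filter (0.0569), with the 2 genotypes alone (0.0647) and without any 1 library other than the second Dbp1 library (0.0632 to 0.167).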
